A study of Homo sapiens with 4 samples.

Results

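Expression of 30 genes of cholesterol synthesis, its control by sterols, and cholesterol transport and storage was examined in MDA-MB-468 cells depleted of SASH1, which encodes a signalling adaptor. MDA-MB-468 is a human breast cancer line of the triple-negative type. The genes were chosen by symbol, and all 30 were found among the 26518 Ensembl genes with RNA-seq values. There were 2 libraries of cells with a lentiviral short hairpin RNA against SASH1 (shSASH1) and 2 libraries of cells with the pGIPZ control vector (shControl). Cells of both groups were infected with lentivirus, selected with puromycin as stable clones, and grown in DMEM with fetal bovine serum. The labels give no number of clones or hairpins and do not tie the libraries to separate cultures, so the spread behind each p-value is that of these libraries alone and may be technical. Values are TPM, transcript abundances that are scaled for gene length and library total and so allow levels to be compared between genes.

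Animal cells make cholesterol from acetyl-CoA through mevalonate, isoprenoid diphosphates, squalene and lanosterol, and they also take it up from serum lipoproteins. When membrane sterol is low, the escort protein SCAP carries the SREBP transcription factors, encoded by SREBF1 and SREBF2, to the Golgi, where proteases release their active fragments to switch on the genes of synthesis and uptake. INSIG proteins hold SCAP in the endoplasmic reticulum when sterol is plentiful, while oxysterols activate the LXR nuclear receptors, which raise the efflux transporters ABCA1 and ABCG1. Rapidly growing tumour cells rely on this pathway for membrane sterol and for the prenyl groups that anchor small GTPases.

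The depletion was visible in the libraries: SASH1 stood at 3.65 and 4.01 TPM in shSASH1 and at 14.99 and 13.0 TPM in shControl (log2 change -1.63 ± 0.13 SE, limma adjusted p = 0.00391). Without shControl replicate 1 its change was -1.54 (limma adjusted p = 0.106) and without shControl replicate 2 it was -1.73 (0.104). Depth, estimated by turning TPM back into reads, was 24372161 and 19559313 reads in shSASH1 and 20799554 and 24189328 reads in shControl. The 7 epithelial and basal breast markers examined summed to 4047 and 3084 TPM in shSASH1 replicates 1 and 2 and to 3884 and 3957 TPM in shControl. The 5 fibroblast markers summed to 9.18 to 11 TPM in shSASH1 and 6.34 to 7.12 TPM in shControl, nearly all from COL1A1, with LUM at 0 in every library. The 5 leukocyte markers summed to 33.4 and 96.6 TPM in shSASH1 replicates 1 and 2 and to 33.4 and 39.9 TPM in shControl, nearly all from CD14, while the pan-leukocyte marker PTPRC did not exceed 0.104 TPM and LYZ was at 0 in every library. The 4 endothelial markers summed to 3.08 to 3.91 TPM in shSASH1 and 3.66 to 3.96 TPM in shControl. The part of these markers in the results was not tested. In bulk RNA, fewer cells with a transcript and less transcript per cell cannot be told apart.

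In the main fit as many cholesterol genes were called higher as lower in the shSASH1 libraries, a tie that other settings did not all keep. Of the 29 that reached a mean of 1 TPM over the libraries, 3 rose, 3 fell and 23 did not pass limma's test on log2(TPM + 1) at a Benjamini-Hochberg adjusted p of 0.05 over all 14458 genes tested. Calls thus made up 20.7% of the tested cholesterol genes, against 32.0% of all genes tested (18.8% higher and 13.3% lower). Their median log2 change was -0.09, with 15 of the 29 within 0.2 log2 units of no change, against a median of 0.06 over all genes. The cholesterol median was -0.15 after median-of-ratios scaling and -0.19 after quantile normalization. It was -0.30 after centring on the level of chromosomal neighbours and -0.12 after centring on their deviations. These settings also shift other genes, and their medians over all genes are not given here, so these values cannot be set against 0.06. The groups did not overlap for 18 of the 29 genes (62.1%; 6 higher and 12 lower in shSASH1), against 73.6% of all genes tested (41.3% higher and 32.3% lower). The genes that fell were EBP, TM7SF2 and SQLE, which act at separate steps between squalene and cholesterol. The genes that rose were the sterol carrier gene STARD4, the sterol ketoreductase gene HSD17B7 and, by a smaller amount, the prenyl chain synthase gene FDPS. After quantile normalization 2 cholesterol genes were higher and 4 lower, and with voom on rebuilt reads 2 were higher and 6 lower. The same settings gave 2280 higher and 2434 lower, and 2536 higher and 2813 lower, over all genes, against 2712 higher and 1918 lower as deposited. When shControl replicate 1 or 2 was left out, log2 changes were -1.27 and -1.25 for EBP, -1.03 and -0.95 for TM7SF2, and -0.75 and -0.74 for SQLE. They were 0.78 and 0.67 for STARD4, 0.68 and 0.69 for HSD17B7, and 0.28 and 0.26 for FDPS. The spread in those fits came from the shSASH1 pair alone. Without shControl replicate 1 or without shControl replicate 2, limma called 0 of the 29 genes and 0 of all 14458, so every call below rests on both shControl libraries. In these fits 5 of the 29 genes and 3446 or 3326 of all genes had an unadjusted p under 0.05.

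**Figure D1:**
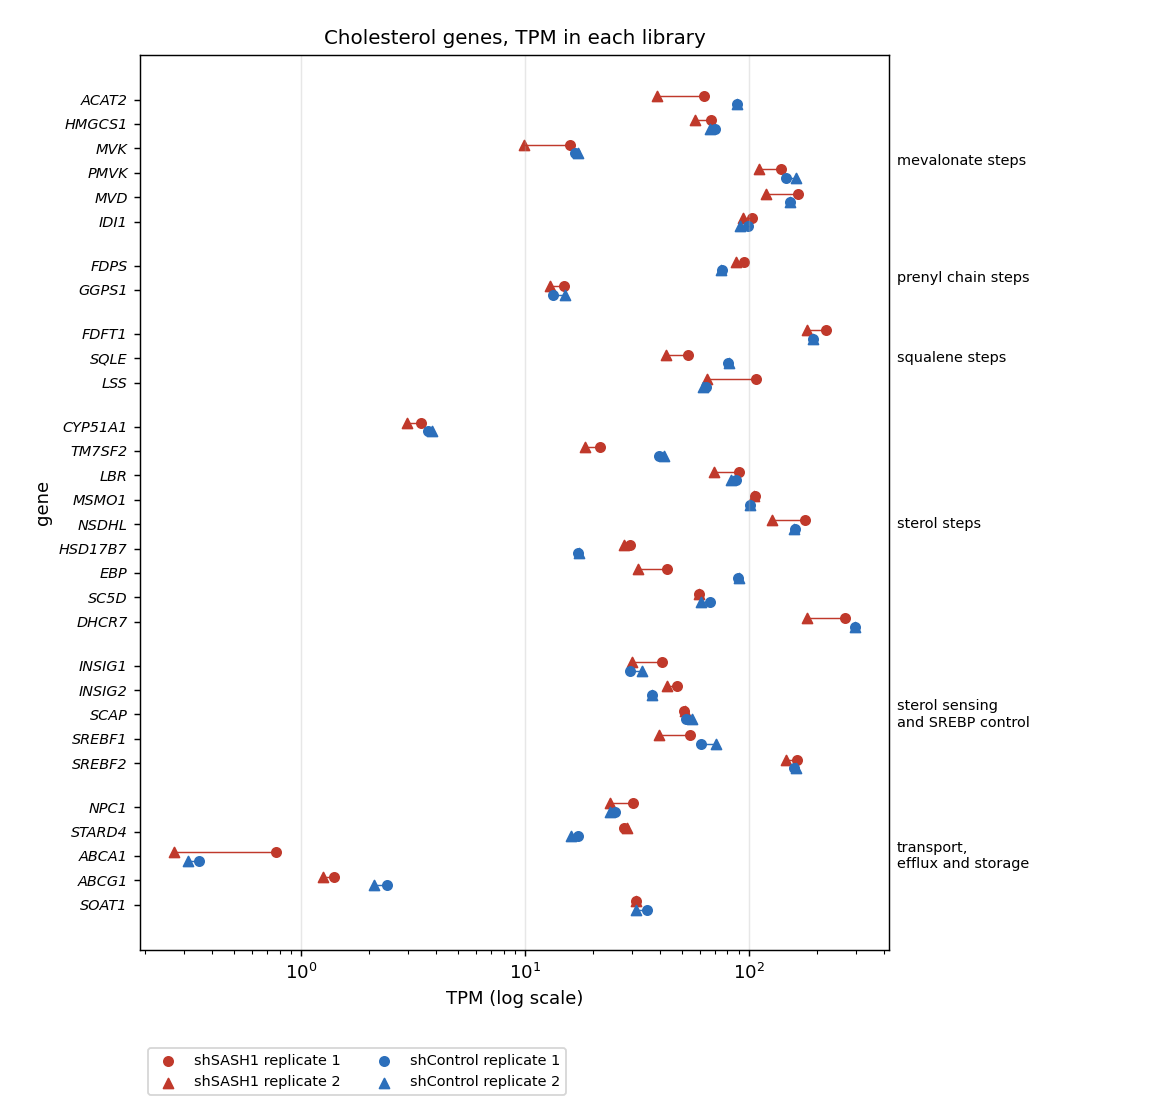
TPM of the 30 cholesterol genes (log scale) in each of the 2 shSASH1 libraries (red) and the 2 shControl libraries (blue), ordered by step; circles are replicate 1, triangles replicate 2, and lines join the libraries of a group. The shControl libraries lie close together, while shSASH1 replicate 2 lies left of replicate 1 for most genes. EBP, TM7SF2, SQLE, HSD17B7 and STARD4 are among the 18 of 29 tested genes whose groups did not overlap.

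The upstream stretches of the called genes are shown because SREBP factors act at promoters together with NF-Y, which binds CCAAT, and SP1, which binds GC boxes. Windows from 250 bases before to 50 bases after each annotated start, from RefSeq on GRCh38.p14, were found for 26 of the 30 genes (34 windows). The sterol regulatory element core TCACNCCAC was found in 1 of 34 windows, that of SREBF2, against 1.13% of 35116 windows of all genes. The CCAAT box was in 58.8% of the cholesterol gene windows and 34.6% of all windows, and the GC box GGGCGG in 88.2% and 45.0%. All motifs were searched on both strands, none of them contains another, and a match is a description, not a binding site. The 200 bases before the start are printed 5′ to 3′ on the gene's strand for SREBF2 and for the called genes with a window, with the sterol element core and CCAAT boxes in either orientation in capitals.
SREBF2 (chr22:41832905-41833104, plus strand): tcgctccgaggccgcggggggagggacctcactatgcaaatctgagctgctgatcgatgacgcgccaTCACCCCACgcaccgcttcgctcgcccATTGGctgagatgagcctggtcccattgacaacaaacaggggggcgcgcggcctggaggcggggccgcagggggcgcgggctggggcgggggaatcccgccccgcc
EBP (chrX:48521608-48521807, plus strand): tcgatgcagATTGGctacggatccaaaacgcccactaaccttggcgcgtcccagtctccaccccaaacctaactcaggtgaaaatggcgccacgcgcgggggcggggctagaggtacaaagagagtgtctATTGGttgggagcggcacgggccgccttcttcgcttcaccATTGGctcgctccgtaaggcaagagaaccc
TM7SF2 (chr11:65111672-65111871, plus strand): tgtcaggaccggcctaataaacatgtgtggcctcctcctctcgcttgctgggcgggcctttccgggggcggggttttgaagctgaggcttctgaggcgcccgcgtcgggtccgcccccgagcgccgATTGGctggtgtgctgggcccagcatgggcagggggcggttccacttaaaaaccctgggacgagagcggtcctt
HSD17B7 (chr1:162790502-162790701, plus strand): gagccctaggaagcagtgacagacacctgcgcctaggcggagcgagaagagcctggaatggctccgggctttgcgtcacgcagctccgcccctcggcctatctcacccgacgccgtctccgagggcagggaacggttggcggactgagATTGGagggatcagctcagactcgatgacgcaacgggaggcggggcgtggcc
STARD4 (chr5:111512536-111512735, minus strand): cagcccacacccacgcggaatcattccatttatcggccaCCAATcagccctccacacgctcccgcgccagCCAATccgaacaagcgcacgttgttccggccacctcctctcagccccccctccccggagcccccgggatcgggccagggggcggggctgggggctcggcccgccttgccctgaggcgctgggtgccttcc
FDPS (chr1:155308666-155308865, plus strand): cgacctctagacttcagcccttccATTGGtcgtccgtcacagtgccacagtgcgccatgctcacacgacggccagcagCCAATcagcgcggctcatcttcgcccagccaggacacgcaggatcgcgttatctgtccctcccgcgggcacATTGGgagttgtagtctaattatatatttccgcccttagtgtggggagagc
In the SREBF2 stretch the capitals are 1 sterol element core, beginning 133 bases before the start, and 1 CCAAT box, read as ATTGG on this strand. The genes that fell (EBP with 3 CCAAT boxes and TM7SF2 with 1) and those that rose (HSD17B7 with 1, STARD4 with 2 and FDPS with 3) both hold CCAAT boxes, and no stretch among these 5 holds the core.

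The first steps, from acetyl-CoA to isopentenyl diphosphate, gave no call. Over all 14458 genes tested, 4630 passed limma's adjusted threshold, 6695 had an unadjusted p under 0.05, and voom on rebuilt reads called 5349. Of the 6 genes of these steps 0 passed limma's adjusted threshold, 1 had an unadjusted p under 0.05, and voom on rebuilt reads called 1. That gene was ACAT2, the cytosolic acetoacetyl-CoA thiolase that joins the first acetyl units, at 62.6 and 39.0 TPM in shSASH1 and 88.1 and 87.9 TPM in shControl. Both shSASH1 libraries lay below both shControl libraries, but far apart, and the log2 change of -0.82 ± 0.23 (SE) had an adjusted p of 0.0556. Over the 10 other settings with all libraries its adjusted p ranged from 0.0195 to 0.373, and 4 of the 10 called it. The 65 other tested genes within 10 Mb of ACAT2 had a median log2 change of -0.37. Centring on their levels gave ACAT2 -0.30 and centring on their deviations gave -0.45, neither past the threshold. ACAT2 shares 9.2% of its exon bases with TCP1 on the opposite strand, itself at 217 and 233 TPM in shSASH1 and 391 and 391 TPM in shControl, 33.9% with a non-coding RNA gene that did not exceed 0.099 TPM, and further bases with a gene not analysed here. Use of strand is not known, and without it the reads of such pairs cannot be told apart.

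HMGCS1, the HMG-CoA synthase and a standard SREBP target, was at 67.6 and 57.3 TPM in shSASH1 and 70.2 and 66.9 TPM in shControl, with overlapping groups (log2 change -0.14, 95% interval -0.40 to 0.12). The mevalonate kinase MVK was at 15.9 and 9.92 TPM in shSASH1 and 16.7 and 17.2 TPM in shControl (log2 change -0.40 ± 0.23). The phosphomevalonate kinase PMVK was at 139 and 111 TPM in shSASH1 and 145 and 161 TPM in shControl (interval -0.65 to 0.04). For both kinases the shSASH1 libraries were below the shControl libraries, with replicate 1 near them and replicate 2 further off. MVK shares 4.7% of its exon bases with MMAB on the opposite strand, which was at 15.9 and 9.58 TPM in shSASH1 and 22.6 and 20.8 TPM in shControl. The decarboxylase MVD was at 165 and 119 TPM in shSASH1, on either side of 152 and 151 TPM in shControl. The isomerase IDI1 was at 103 and 93.6 TPM in shSASH1 and 98.6 and 91.2 TPM in shControl, with an interval of -0.16 to 0.25.

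At the branch where isoprenoid diphosphates lengthen, FDPS rose slightly. FDPS makes farnesyl diphosphate, the precursor of both squalene and protein prenyl groups. It was at 94.8 and 87.0 TPM in shSASH1 and 75.7 and 74.9 TPM in shControl, groups without overlap and a 1.21-fold ratio of means (log2 change 0.27 ± 0.07, limma adjusted p = 0.0448). This call passed in 2 of the 10 other settings with all libraries, with adjusted p from 0.0405 to 0.869 and log2 changes from -0.05 to 0.27. FDPS also shares 18.6% of its exon bases with the antisense gene RUSC1-AS1 (14.6 and 16.7 TPM in shSASH1, 16.4 and 13.0 TPM in shControl) and has several processed pseudogene copies, so its reads are uncertain. GGPS1, which makes the longer geranylgeranyl diphosphate and shares 37.3% of its exon bases with TBCE on the same strand, not analysed here, was at 14.96 and 12.9 TPM in shSASH1 and 13.3 and 15.1 TPM in shControl, with overlapping groups.

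In the steps that make and close squalene, SQLE fell while its neighbours in the pathway did not pass. SQLE, squalene epoxidase, is a flux-controlling enzyme that adds the first oxygen. It stood at 53.5 and 42.7 TPM in shSASH1 and 80.4 and 81.4 TPM in shControl, with shControl 1.68-fold above shSASH1 (log2 change -0.75 ± 0.12, limma adjusted p = 0.0150). FDFT1, squalene synthase, was the most abundant transcript of these 3, at 221 and 182 TPM in shSASH1 and 193 and 192 TPM in shControl, with the groups overlapping (interval -0.22 to 0.34). LSS, the cyclase that forms lanosterol, was at 107 and 64.6 TPM in shSASH1 and 63.8 and 62.3 TPM in shControl. Its shSASH1 libraries both lay above shControl, replicate 1 far above and replicate 2 just above, and the change did not pass (log2 change 0.39 ± 0.24, adjusted p = 0.272).

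Among the 9 genes that turn lanosterol into cholesterol, 2 fell and 1 rose (33.3% called, near the 32.0% of all genes tested). EBP, the sterol isomerase that moves the ring double bond, had the lowest log2 change of the 29 genes. It was at 43.0 and 31.8 TPM in shSASH1 and 89.1 and 90.4 TPM in shControl, so that shControl was 2.40-fold above shSASH1 (log2 change -1.26 ± 0.15, limma adjusted p = 0.00798). TM7SF2, a sterol C14 reductase of the endoplasmic reticulum, was at 21.5 and 18.5 TPM in shSASH1 and 39.5 and 41.7 TPM in shControl, a difference of 2.03-fold (log2 change -0.99 ± 0.10, limma adjusted p = 0.00590). LBR, the lamin B receptor, which carries the same reductase activity at the inner nuclear membrane, was at 90.1 and 69.3 TPM in shSASH1 and 87.2 and 83.2 TPM in shControl, with overlapping groups (interval -0.47 to 0.26). LBR was thus the more abundant of these reductase transcripts in all 4 libraries.

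HSD17B7, the 3-ketosterol reductase, rose 1.65-fold, at 29.2 and 27.7 TPM in shSASH1 and 17.2 and 17.3 TPM in shControl (log2 change 0.69 ± 0.08, limma adjusted p = 0.00718). Its transcribed pseudogene copy HSD17B7P2 did not exceed 0.254 TPM in any library, though reads could be divided between them. The enzymes that act beside HSD17B7 in the removal of the C4 methyl groups did not pass. MSMO1 was at 106 and 105 TPM in shSASH1 and 101 and 101 TPM in shControl, with an interval of -0.08 to 0.20. NSDHL was at 177 and 127 TPM in shSASH1 and 160 and 159 TPM in shControl, with overlapping groups. Of the last enzymes, the desaturase SC5D was at 59.7 and 59.9 TPM in shSASH1 and 66.6 and 60.8 TPM in shControl. DHCR7, which reduces 7-dehydrocholesterol, had the highest shControl level of all 30 genes, at 268 and 182 TPM in shSASH1 and 295 and 297 TPM in shControl (log2 change -0.42 ± 0.19, adjusted p = 0.155). CYP51A1, the lanosterol demethylase, was listed at only 3.41 and 2.98 TPM in shSASH1 and 3.67 and 3.84 TPM in shControl. In GENCODE 79.4% of its exon bases also belong to AC000120.2 on the same strand, which is not among the rows analysed here, so the level of CYP51A1 cannot be set against those of its partners.

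**Figure D2:**
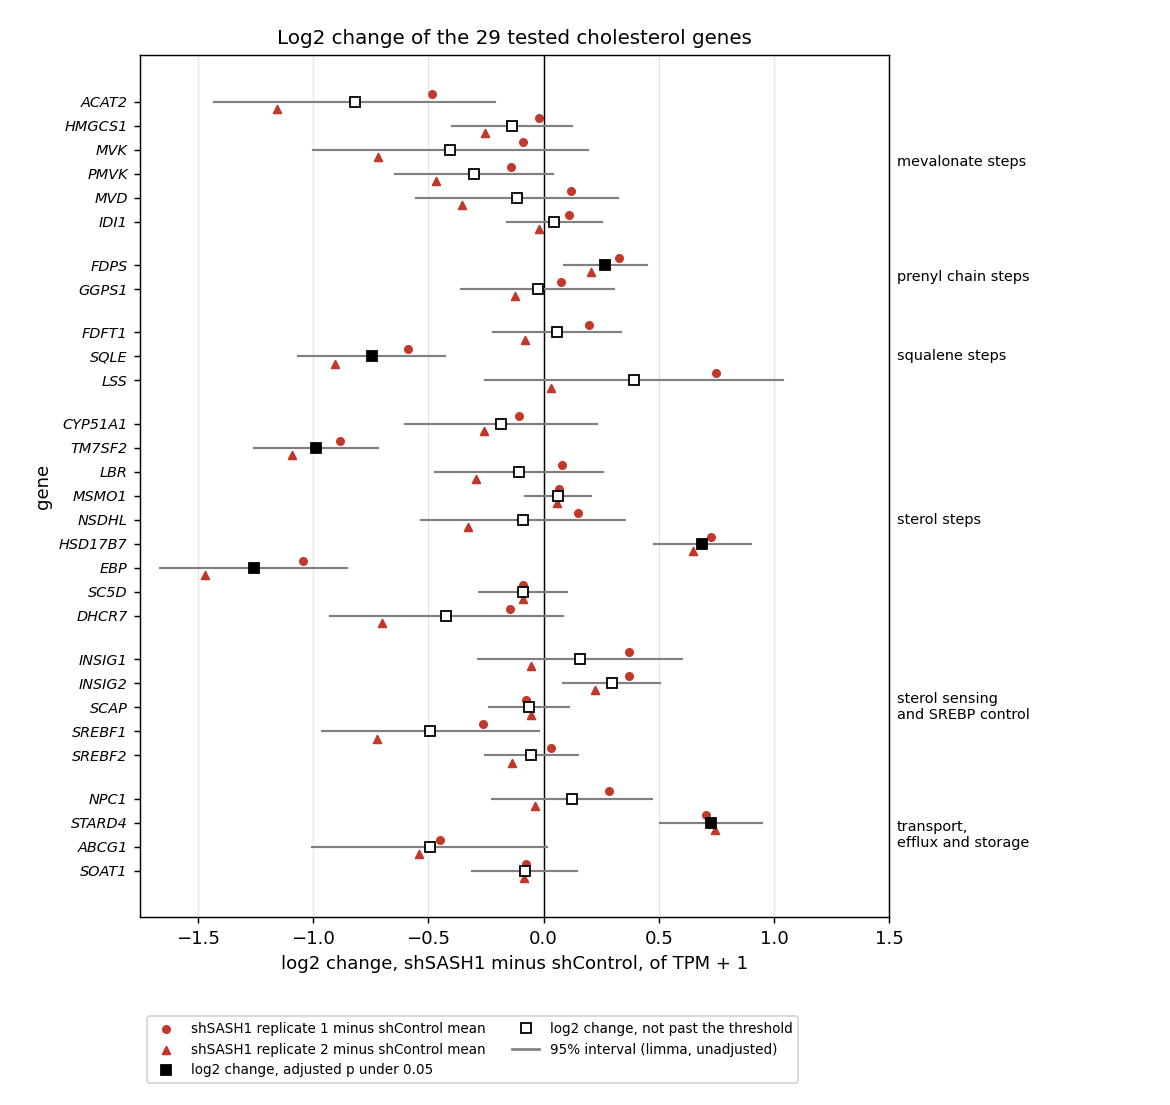
Log2 change of TPM + 1 (shSASH1 minus shControl) for the 29 tested genes, with limma's unadjusted 95% interval; filled squares passed an adjusted p of 0.05. Red circles and triangles give shSASH1 replicates 1 and 2, each minus the shControl mean, and show that replicate 2 lies to the left for 26 of 29 genes.

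The genes that sense sterol and carry the SREBP factors gave no call: 0 of 5 passed limma's adjusted threshold, 2 had an unadjusted p under 0.05, and voom on rebuilt reads called 1. The same counts over all 14458 genes tested were 4630, 6695 and 5349. SREBF2, which encodes the factor most tied to cholesterol genes, was at 164 and 146 TPM in shSASH1 and 159 and 162 TPM in shControl, with an interval of -0.26 to 0.15. SCAP was at 51.0 and 51.7 TPM in shSASH1 and 52.2 and 55.3 TPM in shControl (interval -0.24 to 0.11). SREBF1, whose products lean towards fatty acid genes, was at 54.7 and 39.6 TPM in shSASH1 and 61.0 and 71.1 TPM in shControl. Its groups did not overlap, yet the spread within each was wide (log2 change -0.49 ± 0.18, adjusted p = 0.0986, and from 0.0397 to 0.173 in the 10 other settings, of which voom on rebuilt reads called it). INSIG2 was at 47.8 and 43.1 TPM in shSASH1 and 36.9 and 36.7 TPM in shControl, without overlap and just outside the threshold (log2 change 0.30 ± 0.08, adjusted p = 0.0509, and from 0.0416 to 0.162 in the 10 other settings, of which 2 called it). INSIG1, itself an SREBP target, was at 40.6 and 29.98 TPM in shSASH1, on either side of 29.3 and 33.2 TPM in shControl (interval -0.28 to 0.60).

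Of the transport, efflux and storage genes STARD4 rose and the other 3 tested did not pass. STARD4, a soluble protein that shuttles sterol between membranes and is induced by SREBP factors, was at 27.7 and 28.5 TPM in shSASH1 and 17.2 and 15.99 TPM in shControl. The libraries of each group lay close together, and the ratio of means was 1.69 (log2 change 0.73 ± 0.08, limma adjusted p = 0.00716). NPC1, which exports cholesterol from lysosomes, was at 30.2 and 23.9 TPM in shSASH1 and 25.3 and 24.0 TPM in shControl. SOAT1, which esterifies cholesterol for storage, was at 31.3 and 31.1 TPM in shSASH1 and 35 and 31.2 TPM in shControl (interval -0.31 to 0.14). The efflux transporters were scarce. ABCG1 was at 1.39 and 1.25 TPM in shSASH1 and 2.42 and 2.12 TPM in shControl, without overlap (log2 change -0.49 ± 0.19, adjusted p = 0.116, and from 0.0362 to 0.216 in the 9 other settings that tested it). ABCA1, the only gene below the filter, was at 0.771 and 0.271 TPM in shSASH1 and 0.348 and 0.310 TPM in shControl, or 57 and 16 against 23 and 24 rebuilt reads.

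The shSASH1 libraries differed from each other across this set. Replicate 2 was below replicate 1 in 26 of 29 tested genes (89.7%), against 42.3% of all genes tested, with a median log2 difference of -0.23 against 0.05. STARD4, SCAP and SC5D were the exceptions, with differences of 0.04, 0.02 and 0.0037. The 20 enzymes of synthesis together held 1841 TPM in shSASH1 replicate 1 and 1442 TPM in replicate 2, against 1858 and 1857 TPM in the shControl libraries. Replicate 1 thus stood near the shControl sum and replicate 2 below it. Replicate 2 was also the library with the lowest epithelial marker sum (3084 TPM) and the highest leukocyte marker sum (96.6 TPM, nearly all CD14), whose part in the difference was not tested. Most of the lower epithelial sum came from KRT5 (1225 and 758 TPM in shSASH1 replicates 1 and 2) and KRT17 (560 and 227 TPM). CDH1, KRT8 and KRT14 were also lower in replicate 2, KRT18 changed little (733 and 715 TPM), and EPCAM was higher (543 and 559 TPM). The median absolute log2 difference between replicates of the same gene was 0.23 in shSASH1 and 0.05 in shControl. Without shSASH1 replicate 1, 4 cholesterol genes were called higher and 13 lower; without shSASH1 replicate 2, 8 were called higher and 5 lower. In these fits 7728 and 5888 of all genes were called, with the spread estimated from the shControl pair alone.  The labels name no batch that separates the shSASH1 libraries.

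Some called genes lay among neighbours that moved the same way and others did not. For each gene the other tested genes within 10 Mb on its chromosome were taken as neighbours, and 16 of 29 cholesterol genes (55.2%) had the sign of their neighbours' median, against 61.8% of all genes tested. EBP (chromosome X, 48521158 to 48528716, hg38), fell by 1.26 on the log2 scale where 103 neighbours had a median of -0.87. SQLE (chromosome 8, 124998497 to 125022283) had 60 neighbours with a median of -0.33, and FDPS (chromosome 1, 155308748 to 155320666) had 271 with a median of 0.34, above its own change of 0.27. TM7SF2 (chromosome 11, 65111845 to 65116384) fell by 0.99 among 312 neighbours with a median of -0.05. STARD4 (chromosome 5, 111496033 to 111512590) had 40 neighbours with a median of 0.16, and HSD17B7 (chromosome 1, 162790702 to 162812817) had 205 with a median of 0.33, each well under the gene's own change.

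Values were also centred on the neighbours in each library. After centring on the median level of the neighbours, EBP had a log2 change of -0.47 and did not pass (adjusted p = 0.114), and FDPS had 0.02 (adjusted p = 0.869), while SQLE (-0.71), TM7SF2 (-0.98), STARD4 (0.70) and HSD17B7 (0.49) passed. With a centring on the neighbours' deviations from their own means, chosen after seeing the data, SQLE had -0.41 and did not pass (adjusted p = 0.112), EBP had -0.38 (adjusted p = 0.174), and TM7SF2 (-0.94), STARD4 (0.56) and HSD17B7 (0.39) passed. Over the 10 other settings the adjusted p ranged from 0.00189 to 0.174 for EBP and from 0.00403 to 0.112 for SQLE. Some uncalled genes lay below neighbours that were higher in shSASH1. HMGCS1 had 54 neighbours with a median of 0.55 and SOAT1 had 83 with a median of 0.54. Centred on neighbour levels, HMGCS1 had a log2 change of -0.85 (adjusted p = 0.0231, from 0.0231 to 0.406 over the 10 settings) and SOAT1 -0.70 (adjusted p = 0.0133, from 0.0133 to 0.590). The same centring called NPC1 higher (0.39, adjusted p = 0.0331, from 0.0331 to 0.879), though centring on deviations gave it -0.04. Centring on deviations called PMVK lower (-0.62, adjusted p = 0.0402, from 0.0402 to 0.203).

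**Figure D3:**
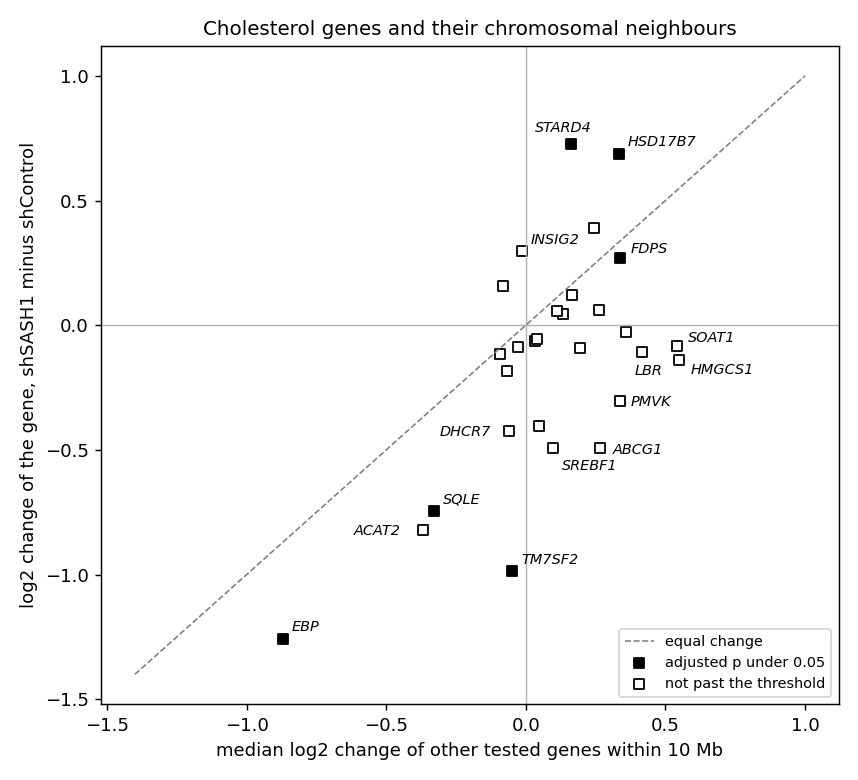
Log2 change of each of the 29 tested cholesterol genes (y axis) against the median log2 change of the other tested genes within 10 Mb (x axis); the dashed line marks equal change and filled squares passed an adjusted p of 0.05. EBP at -1.26 sits beside a neighbour median of -0.87, whereas TM7SF2 at -0.99 sits beside -0.05.

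Genes around the pathway moved both ways, in proportions that differed with the scaling. Of 96 listed genes of supply, processing, uptake, transfer, efflux, storage and fatty acid synthesis, 88 were tested, 28 rose and 13 fell, or 46.6% of the tested genes, against 32.0% of all genes. Median-of-ratios scaling gave 20 higher and 16 lower (2352 and 2162 of all genes), and quantile normalization 18 higher and 17 lower (2280 and 2434). Voom on rebuilt reads gave 22 higher and 21 lower (5349 of all genes in either direction). Centring on neighbour levels gave 10 higher and 16 lower (3616 in either direction). Genes named here passed the threshold with a log2 change of 0.5 or more in size, at most 4 a list. Where such a call did not pass in all of the other settings with every library that tested it, their adjusted p range is given. RXRA, ACACA, MID1IP1, FASN and SCD are also named, beyond these limits and with values of the main fit only. These lists were chosen with earlier results of these data known, so the 46.6% is not independent of the data and shows no excess over 32.0%. The difference in call rate from the cholesterol genes was not tested.

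In the uptake and lysosomal list 6 of 11 rose and 2 fell (72.7% called, against 32.0% of all genes). Its median log2 change was 0.33. VLDLR, a lipoprotein receptor, was at 16.9 and 18.1 TPM in shSASH1 and 10.4 and 10.6 TPM in shControl (log2 change 0.69), and it passed in all 10 other settings. MYLIP, a ubiquitin ligase that degrades lipoprotein receptors, had a log2 change of 0.52 that passed in 7 of 10 settings (adjusted p from 0.0173 to 0.859) and was -0.03 after centring on neighbour levels. SCARB1, the high-density lipoprotein receptor, fell, at 5.47 and 6.36 TPM in shSASH1 and 9.76 and 10.6 TPM in shControl (-0.69). In the list of non-vesicular transfer proteins 6 of 16 rose (37.5% called, against 32.0%) and the others did not pass, with a median of 0.28. Here GRAMD1C (0.93), an Aster protein that draws cholesterol from the plasma membrane, and the oxysterol-binding relatives OSBPL6 (0.58) and OSBPL10 (0.51) passed. GRAMD1C passed in 8 of 10 settings (adjusted p from 0.0225 to 0.0708), OSBPL6 in 8 (from 0.0130 to 0.526) and OSBPL10 in 6 (from 0.0148 to 0.0754).

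In the LXR and efflux list 4 of 11 rose and 2 fell (54.5% called, against 32.0% of all genes), with a median of -0.004. NR1H3, which encodes LXR alpha, was at 24.5 and 26.1 TPM in shSASH1 and 13.1 and 14.9 TPM in shControl (log2 change 0.81, adjusted p = 0.00869). The receptor gene RXRA fell, at 21.0 and 18.9 TPM in shSASH1 and 33.2 and 33.5 TPM in shControl (-0.72, limma adjusted p = 0.00764). TTC39B had a log2 change of 0.91 and passed in 8 of 10 settings (adjusted p from 0.0151 to 0.0793). ABCG4, a relative of ABCG1, fell, at 0.391 and 0.460 TPM in shSASH1 and 2.05 and 1.99 TPM in shControl (-1.08), and passed in 8 of 9 settings (adjusted p from 0.00356 to 0.0529). These stood beside ABCA1 and ABCG1, which were scarce and not called. In the ester and oxysterol list 1 of 8 rose (12.5% called, against 32.0%) and the others did not pass, with a median of -0.07. The gene that rose was NCEH1, which hydrolyses cholesteryl esters. It was at 36.0 and 35.9 TPM in shSASH1 and 19.9 and 19.7 TPM in shControl (0.83, limma adjusted p = 0.00430).

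In the list of SREBP processing and sterol-regulated degradation 2 of 10 rose and 3 fell, with a median of 0.10. MBTPS2, the protease that makes the second cut in SREBP factors, was at 11.3 and 10.7 TPM in shSASH1 and 19.7 and 19.9 TPM in shControl (log2 change -0.80), and its neighbours within 10 Mb had a median of -0.68. It passed in 8 of 10 settings (adjusted p from 0.00144 to 0.609), not after either centring. RNF139, a ubiquitin ligase of the endoplasmic reticulum, fell by 0.73 beside a neighbour median of -0.33. PAQR3, a Golgi protein, had a log2 change of 0.64 and passed in 8 of 10 settings (adjusted p from 0.00489 to 0.415), not after either centring. In the isoprenoid branch 3 of 12 rose and 2 fell (41.7% called, against 32.0%), with a median of -0.01. DHDDS (0.68), which makes the dolichol chain, and the protein prenyltransferase subunit PGGT1B (0.54) rose, while RABGGTA (-0.71), a subunit of the Rab prenyltransferase, and PDSS2 (-0.53), which makes the ubiquinone tail, fell. DHDDS passed in all 10 settings, PGGT1B in 5 (adjusted p from 0.0306 to 0.0770), RABGGTA in 9 (from 0.00919 to 0.0509) and PDSS2 in 9 (from 0.00561 to 0.181). In the acetyl-CoA list 2 of 5 fell (40.0% called, against 32.0%) and the others did not pass. Its median was -0.05, with no gene past the naming limit.

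In the fatty acid list, the other main output of SREBP factors, 6 of 15 rose and 2 fell, with a median of 0.30. Calls made up 53.3% of this list, against 32.0% of all genes. The elongase ELOVL6 was at 12.7 and 11.3 TPM in shSASH1 and 0.234 and 0.180 TPM in shControl (log2 change 3.42, adjusted p = 0.00199), and the desaturases FADS1 (1.06), FADS2 (0.90) and SCD5 (0.80) rose. FADS2 passed in 8 of 9 settings (adjusted p from 0.00414 to 0.0598) and SCD5 in 8 of 10 (from 0.00352 to 0.129). FADS1 (chromosome 11, 61799625 to 61829318, minus strand) lies within the span of FADS2 (61792980 to 61867354, plus strand). Shared exon bases were not examined for the related lists, so FADS1 and FADS2 may share reads and may not be separate rises. The 2 that fell were MID1IP1 (-0.54, beside a neighbour median of -0.76) and ACACA (-0.42). FASN was at 445 and 335 TPM in shSASH1 and 502 and 518 TPM in shControl (-0.40) and did not pass. SCD was at 389 and 201 TPM in shSASH1, on either side of 247 and 259 TPM in shControl, and did not pass.

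**Figure D4:**
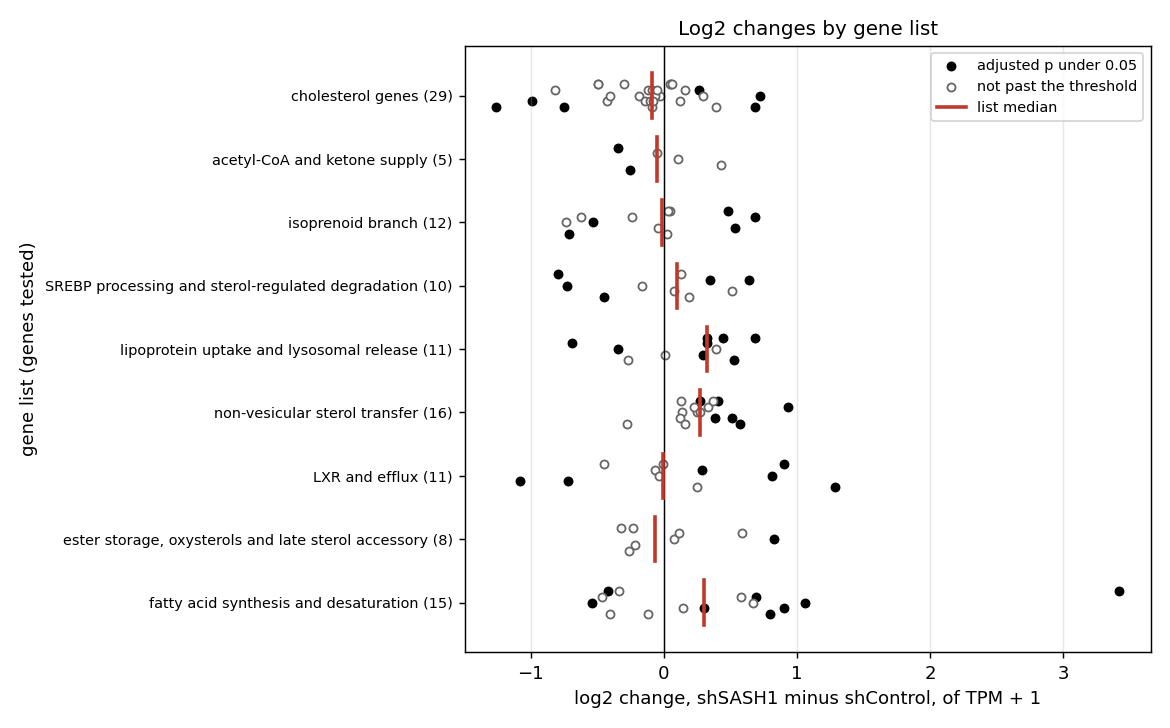
Log2 change of TPM + 1 (shSASH1 minus shControl) of every tested gene in the cholesterol set and in 8 lists of related genes; filled points passed an adjusted p of 0.05 and red bars are list medians. The cholesterol set has a median of -0.09, and the uptake, transfer and fatty acid lists have medians of 0.33, 0.28 and 0.30.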

How the data were processed

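RNA-seq was done on 2 shSASH1 and 2 shControl libraries, prepared with an NEBNext Ultra kit from TRIzol-isolated RNA, per the labels' protocols. The authors deposited TPM per Ensembl gene. The submitters' processing notes name STAR, DESeq2 and hg38, with neither version nor role. How reads were counted, which gene lengths were taken and whether strand was used is not given in the sources used here. TPM is scaled to a fixed total, so that a higher abundant transcript makes others lower. The rows analysed summed to 922023.5 and 910830.5 TPM in shSASH1 replicates 1 and 2, and to 924683.4 and 926711.5 TPM in shControl. These sums differ, so the rows do not hold the whole of that total.

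Identifiers were matched to GENCODE release 29. Genes that reached a mean of 1 TPM were fitted in R 4.3.3 with limma 3.58.1 on log2(TPM + 1), using lmFit and eBayes with a variance trend and no replicate block. Tests were two-sided and called at 0.05 after Benjamini-Hochberg adjustment. The pseudocount understates changes of low genes. A ± on a log2 change is the SE, and 95% intervals are limma's, unadjusted. The procedure was tested on simulated data in which both groups had the same spread for a gene. In the libraries the median SD of log2(TPM + 1) was 0.126 in shSASH1 and 0.051 in shControl. The simulation therefore cannot show how the calls hold under unequal spread. Reads were rebuilt as TPM times exon length, scaled so that low values fell on whole numbers: 88.6% to 89.3% of low values lay within 0.05 of one, and totals are estimates. Between replicates the rebuilt reads gave chi-square values of 24.1 (shSASH1) and 2.19 (shControl) for each degree of freedom, so all were kept as separate samples.

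Alternatives were a pseudocount of 0.1, no filter, a mean of at least 5 TPM, median-of-ratios scaling, quantile normalization, no variance trend, a replicate block, 2 centrings on genes within 10 Mb, voom on rebuilt reads, and each library left out. Members and lists were chosen with earlier results of these data known. All 30 cholesterol genes are named, and the related lists follow the limits given beside them, except that 1 gene that met them is counted but not reported by name here. RXRA, ACACA, MID1IP1, FASN and SCD were added beyond those limits. Some genes of the pathway are not analysed here.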

Additional observations from a re-analysis of the deposited data

How the results depend on the processing

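No paired analysis could be based on the labels: same-numbered libraries share only a number, and their deviations from the group means correlated at -0.03 over genes. A fit with a replicate block gave 2 cholesterol genes higher and 4 lower, 2372 and 1557 of all genes, and 20 and 9 related genes. Of the 6 called genes, TM7SF2, HSD17B7 and STARD4 passed in all 10 other settings with every library, SQLE in 9, EBP in 8 and FDPS in 2. The median of the cholesterol genes was -0.30 after centring on levels within 10 Mb and -0.12 after centring on deviations. Cholesterol genes called lower numbered 5 after centring on deviations within 10 Mb (1644 of all genes) and 6 with voom on rebuilt reads (2813). Related genes called higher numbered 18 without a filter (2249 of all genes), 18 after quantile normalization (2280), 16 without a variance trend (2153), and 10 and 16 after the centrings on levels and deviations (1808 and 1859). Related genes called lower numbered 21 with voom. The causes were not tested.

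With each library left out in turn, cholesterol genes called higher ranged from 0 to 8 and lower from 0 to 13, all genes from 0 to 4543 and from 0 to 3185, related genes from 0 to 41 and from 0 to 22, and the log2 change of SASH1 from -1.73 to -1.54, missing the threshold without either shControl library (adjusted p = 0.106 and 0.104). The 0 counts are limma's without a shControl library, with 3446 and 3326 genes at an unadjusted p under 0.05. A lone library is then assumed to vary like the other group's pair.

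Signs turned for uncalled genes and for FDPS and MYLIP, which were called higher. IDI1 had -0.0148 after median-of-ratios scaling, -0.0561 after quantile normalization, -0.0250 with voom, and -0.33 and -0.0793 after the centrings on levels and deviations. FDFT1 had -0.0041, -0.0072, -0.0158, -0.30 and -0.0398 in the same order. MSMO1 had -0.0356 after quantile normalization, -0.0123 with voom, and -0.17 and -0.12 after the centrings. MVD (0.0583), SC5D (0.0781) and MYLIP (-0.0272) changed sign after centring on levels, and FDPS (-0.0472) and NPC1 (-0.0413) after centring on deviations. With a library left out, IDI1 ranged from -0.0184 to 0.11, GGPS1 from -0.13 to 0.0753, FDFT1 from -0.0812 to 0.20, INSIG1 from -0.0553 to 0.37, NPC1 from -0.0388 to 0.29, MVD from -0.35 to 0.12, LBR from -0.29 to 0.0801, NSDHL from -0.33 to 0.15 and SREBF2 from -0.14 to 0.0301. Depth limits ABCA1, with 16 to 57 rebuilt reads a library, and CYP51A1, ABCG1 and ABCG4, with under 100 each. ELOVL6 had 10 and 9 rebuilt reads in the shControl libraries, against 606 and 430 in shSASH1, so the size of its change is uncertain.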
